A study of Mus musculus with 6 samples.

Results

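The adipokines described here are 10 genes of the deposited table of 45777 genes whose products fat cells secrete: Adipoq, Lep, Retn, Cfd, Rbp4, Nampt, Apln, Nrg4, Itln1 and Rarres2. They were chosen by gene symbol, each symbol matched 1 row, and 9 of the 10 passed the filter on low counts that kept 17820 genes. RNA came from epididymal white adipose tissue, the fat pad beside the epididymis, of mice on a C57BL/6 background after a 24 h fast. The 3 libraries labelled WT came from mice with floxed Pak4 alleles (Pak4 flox/flox) and no Cre named in their labels. The 3 libraries labelled KO came from Adipoq-Cre; Pak4 flox/flox mice, in which Cre is driven by the promoter of Adipoq and so by regulatory sequence of a gene described here. Pak4 encodes a serine/threonine kinase. Floxed Pak4 alleles and the fast are common to both groups. The labels give replicate numbers but neither an age nor a statement that the replicates are different animals, so every p-value reflects spread among libraries that may be technical.

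Adipokines are proteins by which adipose tissue reports its state to other organs. Leptin, the product of Lep, circulates in proportion to fat stores, falls in fasting and restrains feeding through receptors in the brain. Adiponectin (Adipoq) favours fatty acid oxidation and insulin sensitivity, resistin (Retn) opposes insulin action in mice, and adipsin (Cfd), which is complement factor D, cleaves factor B in the alternative complement pathway.

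Libraries held 62854465 to 72005658 counts each. Pak4 itself had 675 to 815 counts per library labelled KO and 337 to 358 per library labelled WT, the opposite order to a deletion, so every direction below is between labels and not between genotypes. The labels call the cells adipocytes while the protocol describes whole tissue. Markers of mature adipocytes summed to 47022 to 66833 CPM (counts per 1000000, scaled by the TMM method) over the libraries, and markers of macrophages (1412 to 2154 CPM) and endothelium (289.8 to 424.8 CPM) were also present. Of 9 epididymal epithelium markers, 7 had 0 counts in every library. No 2 libraries agreed within sampling noise.

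The promoters of Lep, Adipoq, Cfd and Apln are shown because Cfd, Lep and Apln had the largest differences between labels and Adipoq lends its promoter to the Cre driver. Each is the RefSeq sequence in GRCm38.p6 (the mm10 assembly), from 250 bases before the annotated start to 50 after it, 5′ to 3′ on the strand of the gene. They lie at chr6:29059971-29060270 (Lep, plus strand), chr16:23146286-23146585 (Adipoq, plus), chr10:79890603-79890902 (Cfd, plus) and chrX:48034804-48035103 (Apln, minus). Capitals mark matches, on either strand, to any of 6 motifs searched.
Lep: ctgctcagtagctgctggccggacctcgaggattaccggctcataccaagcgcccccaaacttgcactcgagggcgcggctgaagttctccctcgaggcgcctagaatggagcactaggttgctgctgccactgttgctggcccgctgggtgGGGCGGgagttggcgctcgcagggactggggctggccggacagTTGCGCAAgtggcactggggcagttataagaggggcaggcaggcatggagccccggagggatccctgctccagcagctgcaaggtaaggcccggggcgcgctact
Adipoq: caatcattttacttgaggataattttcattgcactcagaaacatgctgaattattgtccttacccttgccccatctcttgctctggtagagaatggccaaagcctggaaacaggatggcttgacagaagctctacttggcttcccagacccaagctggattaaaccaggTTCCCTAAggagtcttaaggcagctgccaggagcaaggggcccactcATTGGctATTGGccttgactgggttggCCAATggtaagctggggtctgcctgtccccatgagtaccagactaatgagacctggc
Cfd: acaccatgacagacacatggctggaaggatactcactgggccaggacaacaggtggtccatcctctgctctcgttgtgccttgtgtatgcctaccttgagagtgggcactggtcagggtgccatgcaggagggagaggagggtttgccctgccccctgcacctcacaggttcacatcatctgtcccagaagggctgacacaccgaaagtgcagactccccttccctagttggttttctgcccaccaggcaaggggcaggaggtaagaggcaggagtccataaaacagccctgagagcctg
Apln: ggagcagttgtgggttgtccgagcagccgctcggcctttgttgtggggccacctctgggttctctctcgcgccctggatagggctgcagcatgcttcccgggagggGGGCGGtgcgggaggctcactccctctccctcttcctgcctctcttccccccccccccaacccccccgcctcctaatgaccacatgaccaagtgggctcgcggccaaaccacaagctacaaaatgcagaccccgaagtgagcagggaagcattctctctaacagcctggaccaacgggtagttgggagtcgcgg

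The motifs were the TATA box written as TATAAA, the box known as CCAAT, a loose core of C/EBP sites written as TTNCNNAA, the E-box with the letters CACGTG, the GC box with the letters GGGCGG and the core of nuclear receptor sites, AGGTCA. The Lep promoter held the palindrome TTGCGCAA, a match to the C/EBP core on both strands, starting at -55 from the annotated start, and a GC box at -98. The Adipoq promoter held a C/EBP core match at -81 and CCAAT matches at -34, -27 and -7. The Apln promoter held 1 GC box, at -144, and the Cfd promoter held none of these 6 strings in this window. The matches in these promoters did not overlap each other. Such strings are common: of 32851 promoter windows of the same length, 40.7% held the C/EBP core, 37.4% the CCAAT box, 35.7% the GC box, 16.3% AGGTCA, 13.6% TATAAA and 7.2% the E-box. A match is a description and not a binding site.

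Adipsin was the most abundant of these transcripts per transcript length, and the order of the adipokines was nearly the same in all 6 libraries. Levels between genes are given as the authors' deposited TPM, which divides by transcript length. Cfd had a median of 24920 TPM (8822 to 37510 over 6 libraries), which placed it between 2nd and 13th of all genes in a library. Adipoq followed at 7057 TPM (5952 to 10166), and its range overlapped that of Cfd although Cfd was above Adipoq within each library. Retn stood at 4873 TPM (4427 to 5574), below the whole range of Adipoq.

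Rbp4 (1059 TPM, 706.5 to 1204), Rarres2 (1025 TPM, 824 to 1162) and Lep (541.2 TPM, 248.4 to 1202) formed a middle tier in which neighbouring ranges overlapped. Rbp4 encodes the plasma carrier of retinol, and Rarres2 encodes chemerin, a chemoattractant and adipokine made as a proprotein. Rarres2 lay above Rbp4 in TPM in all 3 libraries labelled KO and below it in all 3 labelled WT. Below them, with ranges that did not touch, came Nrg4 at 129.9 TPM (101.4 to 167), Nampt at 35.74 TPM (27.18 to 51.97) and Apln at 2.50 TPM (1.18 to 3.81). Itln1, which encodes the lectin intelectin-1, also called omentin, had 2 counts in WT 1 and 0 counts in the other 5 libraries, where a count of 0 allows up to 0.0403 to 0.0489 CPM (3 counts, counting error only). It was not tested.

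**Figure D1:**
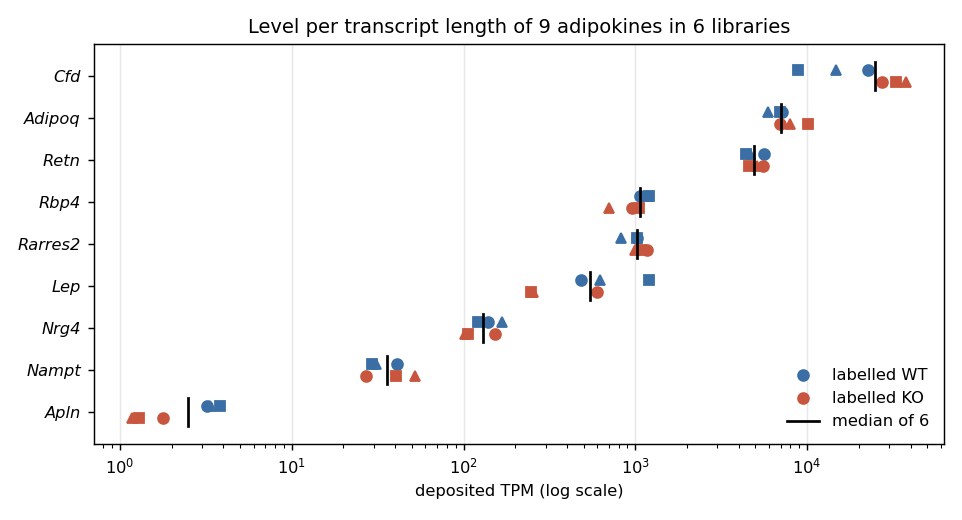
Deposited TPM on a log axis for the 9 adipokines with tested counts, one point per library (circle, square and triangle for replicates 1, 2 and 3), blue for libraries labelled WT and red for KO, with the median of 6 as a black line. Cfd, Adipoq and Retn lie at 4427 TPM or more in every library and Apln at 3.81 TPM or less.

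Between labels, 0 of the 9 tested adipokines passed in edgeR (quasi-likelihood F test, Benjamini-Hochberg adjusted over all genes), where 0.0168% of genes passed. At an unadjusted p under 0.05 there were 3 of 9 (Cfd, Rbp4 and Apln), against 19.4% of all genes. The same 3 had groups of libraries that did not overlap. One, Cfd, was higher in every library labelled KO, as were 13.7% of all genes, and the others, Rbp4 and Apln, were lower in each, as were 12.5%. The median log2 fold change of the labels KO over WT was -0.01 over the 9 adipokines and 0.02 over all genes tested. Values below are TMM-scaled CPM as mean ± SD with n = 3 per group, and fold changes are log2 values of KO over WT ± SE.

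Cfd had 11373, 4612 and 7136 CPM in libraries WT 1, 2 and 3 and 13296, 15278 and 18439 CPM in KO 1, 2 and 3. All 3 libraries labelled KO lay above all 3 labelled WT, with WT 1 close to KO 1. The means were 7707 ± 3416 and 15671 ± 2594 CPM, a log2 fold change of 1.02 ± 0.32 (adjusted p 0.182 in edgeR). DESeq2 called it (1.02, adjusted p 0.0100), in a test that called 6.88% of its genes. Over all alternatives its adjusted p ran from 0.0100 to 0.459 and its log2 fold change from 0.76, without WT 2, to 1.41, without WT 1. Cfd lies on chromosome 10 at 79890853 to 79892655 in GRCm38.p6, and no other RefSeq gene overlaps it.

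Lep had 859.9, 2225 and 1064 CPM in libraries WT 1, 2 and 3 and 1036, 410 and 441 CPM in KO 1, 2 and 3. The groups overlapped: KO 1 lay inside the WT range, while KO 2 and KO 3 lay below every library labelled WT. The means were 1383 ± 736.1 and 629.1 ± 352.9 CPM, a log2 fold change of -1.14 ± 0.49 that did not pass (adjusted p 0.267 in edgeR). It had the widest spread of the 9 genes, 5.43-fold between WT 2 and KO 2. The size turned on single libraries, being -1.70 ± 0.42 without KO 1 (adjusted p 0.0664) and -0.61 ± 0.42 without WT 2 (adjusted p 0.533, both in edgeR), and 0 of 12 alternatives called it, with adjusted p of 0.0664 to 0.557. Lep lies on chromosome 6 at 29060221 to 29073876.

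Adipoq had 4819, 4850 and 3851 CPM in libraries WT 1, 2 and 3 and 4548, 6347 and 5222 CPM in KO 1, 2 and 3. KO 2 and KO 3 were above every library labelled WT, and KO 1 was not. The log2 fold change was 0.25 ± 0.18 (adjusted p 0.461 in edgeR), and it was 0.11 without KO 2. Counts per gene do not separate the transcripts of the gene on chromosome 16 (23146536 to 23157968) from any transcript of the Cre transgene that holds Adipoq sequence, and this was not tested.

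The number of Adipoq counts per Lep count, a ratio named after its values were seen and given without a test, was 5.60, 2.18 and 3.62 in libraries WT 1, 2 and 3. It was 4.39, 15.5 and 11.8 in KO 1, 2 and 3. KO 1 again lay inside the WT range, and KO 2 and KO 3 lay above it.

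Retn had 1778, 1476 and 1448 CPM in libraries WT 1, 2 and 3 and 1730, 1355 and 1594 CPM in KO 1, 2 and 3. The groups overlapped almost fully, at means of 1567 ± 182.8 and 1560 ± 189.5 CPM, and Retn had the smallest spread of the 9, 1.31-fold from lowest to highest library. Its log2 fold change was -0.01 ± 0.15 (adjusted p 0.984 in edgeR) and changed sign with the scaling, to 0.11 with library size alone. That scaling also took the median over all tested genes from 0.02 to 0.13. Retn lies on chromosome 8 at 3655770 to 3659818. Of the related genes of the resistin-like family, Retnla had 558.2 ± 110.4 and 527 ± 150.8 CPM (log2 fold change -0.08 ± 0.23), Retnlg stood at 0.26 ± 0.73, and Retnlb was not tested.

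**Figure D2:**
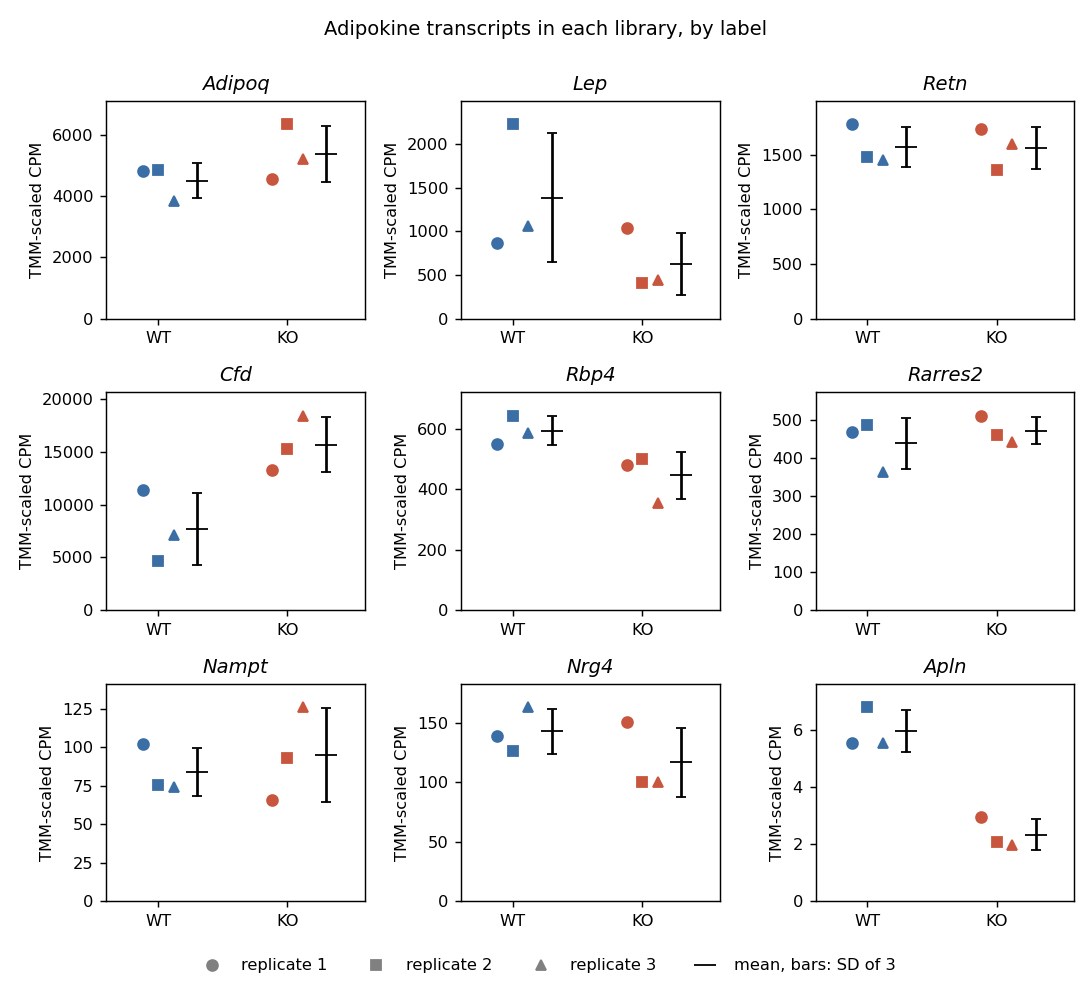
TMM-scaled CPM of the 9 tested adipokines, each panel on its own axis from 0, one point per library by label and replicate number, with the mean and SD of 3 beside each group. Cfd, Rbp4 and Apln are the panels in which the groups do not overlap, and in the Lep panel KO 1 sits among the libraries labelled WT.

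Apln, which encodes apelin, a peptide ligand of the receptor APLNR that acts on vessels and heart, had the smallest p of the 9 genes. It had 340, 457 and 341 counts in libraries WT 1, 2 and 3 and 200, 144 and 148 counts in KO 1, 2 and 3, or 5.55, 6.82 and 5.56 against 2.97, 2.07 and 1.99 CPM. Every library labelled KO lay below every library labelled WT. The means were 5.98 ± 0.73 and 2.34 ± 0.55 CPM, a log2 fold change of -1.35 ± 0.20, the 35th smallest p of 17820 genes, and it missed the threshold at an adjusted p of 0.0898 in edgeR.

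The call for Apln turned on the test and on 1 library. It was called lower by DESeq2 (-1.36, adjusted p 3.07e-06) and by edgeR without KO 1 (-1.56 ± 0.17, adjusted p 0.0240), where 5.57% of genes passed, and by no other of the 12 alternatives, with adjusted p up to 0.403. Summed endothelial markers were also lower in each library labelled KO, 289.8 to 316.3 CPM against 337.3 to 424.8 in those labelled WT. Of these 12 markers, 10 had a log2 fold change below 0 (median -0.41) and 0 passed in edgeR. At an unadjusted p under 0.05 in edgeR 7 were lower, as were 1730 of all 17820 genes. DESeq2 called 5 lower, as it did 4.12% of its genes. In whole tissue, fewer cells of a type and less RNA per cell cannot be told apart, and the part of this in the result for Apln was not tested. Apln lies on chromosome X at 48025146 to 48034853.

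Rbp4 had 551.3, 645.2 and 588.7 CPM in libraries WT 1, 2 and 3 and 482, 501.4 and 356.6 CPM in KO 1, 2 and 3. All 3 libraries labelled KO lay below those labelled WT, with KO 3 lowest. The means were 595 ± 47.28 and 446.7 ± 78.63 CPM, a log2 fold change of -0.41 ± 0.16 that did not pass (adjusted p 0.215 in edgeR) and that ran from -0.51 without KO 2 to -0.28 without KO 3. RefSeq gives Rbp4, on chromosome 19 at 38116620 to 38125321, a pair of start sites, which gene counts do not separate.

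Nrg4, an EGF family ligand of ERBB receptors that is enriched in brown fat, had 139.2, 125.9 and 163.3 CPM in libraries WT 1, 2 and 3. In KO 1, 2 and 3 it had 150.5, 99.9 and 99.9 CPM. KO 1 again lay among the WT libraries and the other KO libraries below them. Its log2 fold change was -0.29 ± 0.18 (adjusted p 0.404 in edgeR) and -0.52 ± 0.12 without KO 1 (adjusted p 0.0599, the lowest of its 12 alternatives, which reached 0.735). Nrg4 overlaps Fbxo22, a gene on the opposite strand with 2644 to 3812 counts, and its counts are uncertain because no source used here says whether counting used strand.

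Nampt, the rate-limiting enzyme of NAD salvage, which is also found outside cells, had 102, 75.6 and 74.1 CPM in WT 1, 2 and 3 and 65.7, 93.2 and 126.3 CPM in KO 1, 2 and 3. Libraries labelled KO were both the lowest and the highest of the 6. Its log2 fold change was 0.18 ± 0.24 (adjusted p 0.708 in edgeR), 0.39 without KO 1 and -0.08 without KO 3. Gdap10, a noncoding gene with 18 to 60 counts, lies within its span. Rarres2 had 466.6, 485.5 and 361.3 CPM in WT 1, 2 and 3 and 510.8, 459.5 and 442 CPM in KO 1, 2 and 3. These groups overlapped, with a log2 fold change of 0.10 ± 0.14 (adjusted p 0.71 in edgeR) that became -0.02 without WT 3. Its annotated span overlaps that of Lrrc61 (1469 to 1633 counts), so its counts are uncertain too.

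**Figure D3:**
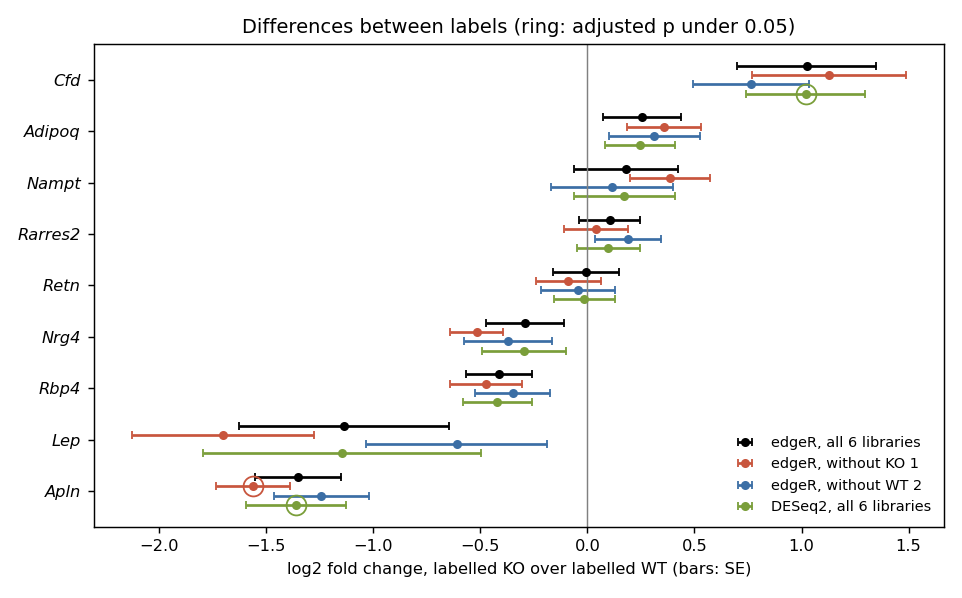
Log2 fold change of the labels KO over WT with its SE for 9 adipokines, in edgeR with all 6 libraries, without KO 1 and without WT 2, and in DESeq2, where a ring marks an adjusted p under 0.05. Rings stand at Cfd in DESeq2 and at Apln in DESeq2 and without KO 1, and the Lep estimates spread from -1.70 to -0.61.

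The number of adipokines with groups that did not overlap was highest without the library labelled KO 1, as it was over all genes. Leaving out libraries was a comparison added here after the data were seen. Without KO 1, 2 adipokines were higher in every remaining library labelled KO (Adipoq and Cfd), as were 25.3% of all genes. Lower were 4 (Lep, Rbp4, Apln and Nrg4), as were 24.1%. With all 6 libraries these shares over all genes were 13.7% and 12.5%. Leaving out any other library gave 3 or 4 in all.

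Summed markers of mature adipocytes did not overlap between labels and stood lower in the libraries labelled KO, at 57493, 48955 and 47022 CPM in KO 1, 2 and 3 against 64650 to 66833 CPM in those labelled WT. Of these 16 markers, from which the adipokines were left out, 15 had a log2 fold change below 0 (median -0.34) and 0 passed in edgeR. At an unadjusted p under 0.05 in edgeR 3 were lower, as were 1730 of all 17820 genes, and DESeq2 called 2 lower. KO 1 lay nearest to the libraries labelled WT on the adipocyte sum. Macrophage markers, 12 of 12 above 0 with 0 passing in edgeR and 4 in DESeq2, summed to 1412 to 1738 CPM under the label WT and to 1438, 2035 and 2154 CPM in KO 1, 2 and 3. Mesothelial markers, 11 of 12 above 0 with 0 passing in edgeR and 2 in DESeq2, summed to 622.7 to 1022 and to 1001 to 1242 CPM. At an unadjusted p under 0.05 in edgeR 6 macrophage and 6 mesothelial markers were higher, as were 1721 of all 17820 genes. Taken singly, 5 markers in each of these lists had groups apart, all higher, as were 13.7% of all genes. For 4 adipocyte markers groups were apart, all lower, as were 12.5%. Progenitor and fibroblast markers, 7 of 12 above 0 and 5 below with 0 passing in edgeR, summed to 4953 to 5211 CPM under the label WT. In KO 1, 2 and 3 they summed to 4644, 6330 and 6574 CPM, and DESeq2 called 2 of the 11 it tested higher. Sums of 2 other lists did not overlap between labels. The B and plasma cell sum was lower under the label KO (137.7 to 202.9 CPM against 253.1 to 355), but Ighm alone had 108 to 333 CPM. Of these 8 markers, 7 had a log2 fold change above 0 and 1 below (median 0.53). The neutrophil sum was higher under the label KO (24.85 to 33.61 CPM against 17.19 to 20.48), with Mmp9 alone at 6.1 to 24.2 CPM. Of these 8 markers 5 were tested, 4 above 0 and 1 below, and Ly6g had 0 counts in every library. In each of these lists 0 passed in edgeR, and DESeq2 called 1 higher and 1 lower. Without KO 1, edgeR called 5 adipocyte and 3 endothelial markers and 1 B and plasma cell marker lower, against 3.49% of all genes. It called 5 macrophage markers, 3 progenitor and fibroblast markers and 1 mesothelial marker higher, against 2.08% of all genes, and 0 neutrophil markers. DESeq2, with all 6 libraries, called 4.12% of its genes lower and 2.76% higher. The part of these marker shifts in the adipokine results was not tested.

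Set against the mean log2 CPM of the adipocyte markers in the same library, every difference moved upwards by construction, since that mean ranged from 10.7 to 10.83 under the label WT and was 10.74, 10.28 and 10.2 in KO 1, 2 and 3. These values are given without a test. In log2 units, Cfd lay 2.03 ± 0.59 above that mean under the label WT and 3.52 ± 0.51 above it under the label KO. Retn stood at -0.18 ± 0.14 and 0.20 ± 0.22 and Rarres2 at -2.02 ± 0.28 and -1.53 ± 0.18, and on this scale each of these 3 was higher in every library labelled KO. Rbp4 (-1.57 ± 0.18 and -1.62 ± 0.27) and Nrg4 (-3.63 ± 0.14 and -3.56 ± 0.07) had overlapping groups on it. Apln was lower in every library labelled KO (-8.20 ± 0.24 and -9.18 ± 0.03), while Lep (-0.48 ± 0.79 and -1.24 ± 0.46) and Adipoq (1.35 ± 0.23 and 1.97 ± 0.49) overlapped.

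**Figure D4:**
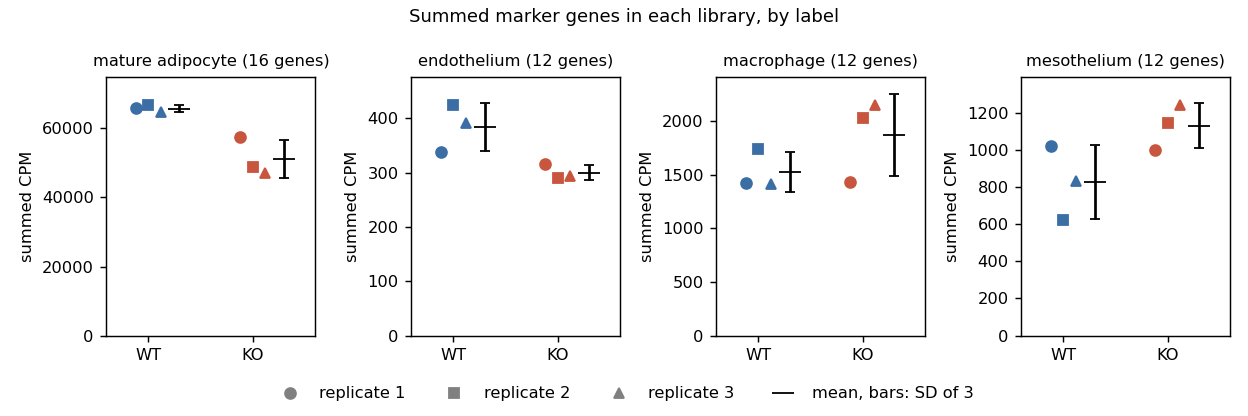
Summed TMM-scaled CPM of 4 marker lists in each library, axes from 0, points by label and replicate number, with the mean and SD of 3 beside each group. Adipocyte and endothelial sums are lower in every KO-labelled library than in the WT-labelled ones, while the macrophage and mesothelial sums overlap between labels.

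As a share of summed deposited TPM, the 10 adipokines took 3.81%, 2.38% and 2.82% in libraries WT 1, 2 and 3 and 4.26%, 5.01% and 5.26% in KO 1, 2 and 3. Cfd alone made up 37.1% to 59.4% of their TPM under the label WT and 63.9% to 71.3% under the label KO. The groups did not overlap in either share, but both shares hold Cfd, so neither is a result apart from that of Cfd above.

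Of 17 receptor genes, 0 passed in edgeR and 0 of the 13 that DESeq2 tested passed there, 3 were higher and 2 lower at an unadjusted p under 0.05 in edgeR, 10 lay above 0 and 7 below, and the median log2 fold change was 0.10 against 0.02 over all genes. Aplnr, the apelin receptor, had 1.55, 3.94 and 5.62 CPM in WT 1, 2 and 3 and 2.1, 1.19 and 1.46 CPM in KO 1, 2 and 3. These overlapped through WT 1, with a log2 fold change of -1.23 ± 0.45 (adjusted p 0.215 in edgeR). Cdh13, which encodes T-cadherin, a binding protein of adiponectin, stood at -0.45 ± 0.15, and C3ar1, the receptor for the complement fragment C3a, at 0.45 ± 0.17. Without KO 1, edgeR called 1 of the 17, C3ar1, which was higher, where 5.57% of all genes were called. At an unadjusted p under 0.05 in edgeR, 1721 of all 17820 genes were higher and 1730 lower. That is the background for this list and for those below.

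The signalling receptors of adiponectin and leptin, named after their values were seen, did not pass in edgeR. Adipor2 had 1411 ± 183 and 1511 ± 130.1 CPM (0.10 ± 0.15), Adipor1 210.3 ± 6.06 and 175.9 ± 23.84 CPM (-0.26 ± 0.12), and Lepr 1.40 ± 0.23 and 1.09 ± 0.12 CPM (-0.35 ± 0.23). Adipor1 was lower in every library labelled KO than in every library labelled WT, and the groups overlapped for Adipor2 and Lepr. Their adjusted p in edgeR lay between 0.274 and 0.736.

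Genes of the alternative complement pathway, in which adipsin acts, went both ways. Of 10 genes, 0 passed in edgeR (4 higher and 3 lower at an unadjusted p under 0.05), 5 lay above 0 and 5 below (median 0.16), and 3 had groups apart in each direction, against 13.7% of all genes higher and 12.5% lower. C3, the central complement protein, had 1735 ± 282.2 and 2863 ± 808.8 CPM (0.72 ± 0.23), and Cfp, which encodes properdin, the stabiliser of its convertase, stood at 0.43 ± 0.12. Masp1, whose isoform MASP-3 converts pro-factor D to its active form, stood at -0.61 ± 0.17. In edgeR C3, Cfp and Masp1 had adjusted p of 0.157 to 0.183. DESeq2 called 5 of the 9 list genes it tested, among them C3 and Cfp higher and Masp1 and Cd59a lower, against 6.88% of all its genes. Without KO 1, edgeR called 3 of the 10, all higher, C3 and C3ar1 among them, against 5.57% of all genes.

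Genes that help to fold and modify adiponectin in the endoplasmic reticulum numbered 11, of which 0 passed in edgeR (2 lower at an unadjusted p under 0.05, median log2 fold change -0.06) and 4 had groups apart, all lower in the libraries labelled KO, as were 12.5% of all genes. Plod3 and Plod1, lysyl hydroxylases of collagen-like sequence such as that of adiponectin, stood at -0.68 ± 0.20 and -0.55 ± 0.17, and both were called by DESeq2 but not by edgeR without KO 1. They were the 2 of 11 list genes that DESeq2 called lower, against 4.12% of all its genes. Hspa5, the chaperone BiP, stood at -0.25 ± 0.12 and P4hb, a protein disulfide isomerase, at -0.20 ± 0.13. Among 12 tested relatives of adiponectin in the C1q/TNF family, 0 passed in edgeR or DESeq2 (4 lower at an unadjusted p under 0.05, median -0.08). C1qtnf5 (-0.92 ± 0.31), C1qtnf3 (-0.55 ± 0.16), C1qtnf9 (-0.46 ± 0.18) and C1qtnf12 (-0.41 ± 0.13) had the smallest p. Without KO 1, edgeR called 2 of the 12 lower, C1qtnf5 and C1qtnf12, against 3.49% of all genes.

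Of 11 tested genes of retinol handling around Rbp4, 0 passed in edgeR (2 higher and 1 lower at an unadjusted p under 0.05, median 0.08). Rbp7, an intracellular retinol-binding protein, had 126, 167 and 133 CPM in WT 1, 2 and 3 and 89.2, 73.3 and 74 CPM in KO 1, 2 and 3. These groups did not overlap (-0.85 ± 0.14, adjusted p 0.106 in edgeR). Rbp7 was the 1 list gene called, lower, by DESeq2 (10 tested) and by edgeR without KO 1 (11 tested). Over all genes these fits called 4.12% and 3.49% lower. Stra6, the membrane receptor of RBP4, was low, at 0.18 ± 0.04 and 0.41 ± 0.07 CPM (1.17 ± 0.38), and Aldh1a2, which makes retinoic acid, stood at 0.45 ± 0.19. Of 16 genes of NAD synthesis and use around Nampt, 0 passed in edgeR (4 higher at an unadjusted p under 0.05, median 0.17). The NAD-consuming ectoenzyme genes Cd38 (0.57 ± 0.12) and Bst1 (0.64 ± 0.15) were both called higher by DESeq2 and by edgeR without KO 1. They were 2 of 16 in each fit, against 2.76% and 2.08% of all genes called higher. Naprt, of the nicotinic acid route, stood at 0.33 ± 0.11, and Nmnat3, an NMN adenylyltransferase, at 0.43 ± 0.18.

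Of 16 transcription factors known to act on adipokine genes, 0 passed in edgeR, with a median log2 fold change of 0.09. At an unadjusted p under 0.05 in edgeR 3 were higher, as were 1721 of all 17820 genes. Groups were apart for 3, all higher in the libraries labelled KO, as were 13.7% of all genes. Pparg, the receptor that drives the adipocyte programme, had 181, 155 and 176 CPM in WT 1, 2 and 3 and 222, 258 and 301 CPM in KO 1, 2 and 3. These did not overlap, at a log2 fold change of 0.61 ± 0.14 (adjusted p 0.136 in edgeR), and DESeq2 and the fit without KO 1 called Pparg higher. It was the 1 of 16 called in each fit, against 2.76% and 2.08% of all genes called higher. Ebf2 (0.31 ± 0.11), Sp1 (0.21 ± 0.09) and Nr3c1, the glucocorticoid receptor (0.20 ± 0.14), followed.

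The genes most like each main adipokine were those with the smallest root mean square difference of centred log2 CPM over the 6 libraries, among 9028 genes of at least 10 CPM. With 6 libraries and this many candidates a close match is easily found, so the names are a description. For Lep they were Phf8, Akap2 and Irak2 (differences of 0.10 to 0.14 log2 units), and Akap2 had 207, 436 and 237 CPM in WT 1, 2 and 3 and 230, 79 and 99 CPM in KO 1, 2 and 3. For Cfd they were Mmp9, Gpx3 and Ppl (each 0.14), and Gpx3, a secreted glutathione peroxidase, had 1338, 583 and 858 CPM in WT 1, 2 and 3 and 1922, 2298 and 2207 CPM in KO 1, 2 and 3. For Adipoq they were Pla1a, Apbb1ip and Cenpc1 (0.042 to 0.05), and for Retn Npm3, Dhps and Rhbdd3 (0.045 to 0.05).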

How the data were processed

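Stranded mRNA libraries were made from Trizol-extracted tissue RNA, per the labels' protocols. The submitters' processing notes list StringTie 2.1.3b, HISAT2 2.1.0, Bowtie2 2.3.4.1 and the build mm10, without roles. The authors deposited read counts per gene, which entered every test, FPKM values, used only to check the order of levels, and TPM values, used for levels between genes. Each library was assigned by its title. Genes kept by filterByExpr (minimum count 10, total 15) received TMM factors and a robust quasi-likelihood fit on the label (edgeR 4.0.16 under R 4.3.3), two-sided, Benjamini-Hochberg adjusted over all genes, threshold 0.05. SE is the fold change over the square root of F. Log2 CPM used a prior count of 2. DESeq2 1.42.0 with its own filtering, limma 3.58.1 voom, other scalings, no filter, a replicate block and leaving out each library were alternatives. The edgeR, limma voom and DESeq2 fits were checked on simulated data. The rule for named genes took all members, Pak4, up to 4 genes of smallest p per list and 3 most alike per main adipokine, and some genes it names are not reported here. The members and lists were chosen with earlier results of these data known. Positions and promoters are those of RefSeq, GRCm38.p6, and promoters matched 9 of 10 members. An exact permutation test of 3 against 3 cannot go below 0.1 and was not used.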

Additional observations from a re-analysis of the deposited data

How the results depend on the processing

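In edgeR 0 adipokines and 0 list genes passed with TMM, RLE or library size scaling, without the filter or with the replicate block, and 0 of each passed in limma voom. DESeq2 called 2 adipokines, 1048 genes (6.88% of those it tested) and 35 genes of the receptor, processing, regulator and marker lists. Over all genes, limma voom called 5 genes and the replicate block 1, against 3 genes as reported. Leaving out 1 library gave 0 to 1 adipokines, 1 to 1016 genes (at most 5.57% of those tested) and 0 to 32 list genes, each highest without KO 1, and 3 to 6 adipokines with groups apart. The counts of list genes are given without the number of list genes tested, so they cannot be compared with these shares. Leaving out an arm's library leaves 2 against 3, and the cause of the shift without KO 1 was not tested. Directions held in all 12 alternatives for Adipoq, Lep, Cfd, Rbp4, Apln and Nrg4. Retn reversed to 0.11 with library size alone and ran from -0.089 to 0.092 with 1 library left out, Nampt from -0.079 to 0.39 and Rarres2 from -0.019 to 0.19. Ranking by deposited FPKM kept all 10 adipokines in the same places as TPM. The replicate numbers did not pair the libraries: deviations of same-numbered libraries correlated at -0.17, -0.02 and 0.05. Itln1, at 0 to 2 counts per library, was too low to test.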

Other observations

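Among other proteins that fat secretes, 0 of 26 tested genes passed in edgeR (2 higher and 5 lower at an unadjusted p under 0.05), 14 lay above 0 and 12 below, and the median log2 fold change was 0.07. Agt, which encodes angiotensinogen, had 308.3 ± 60.31 CPM under the label WT and 555.4 ± 99.33 CPM under the label KO (0.85 ± 0.19, n = 3 each). Sparc, a matrix-binding glycoprotein, had 5668, 10598 and 6980 CPM in WT 1, 2 and 3 and 4320, 3832 and 2420 CPM in KO 1, 2 and 3 (-1.14 ± 0.30). Angptl4, an inhibitor of lipoprotein lipase, stood at -0.66 ± 0.19 and Pm20d1, an enzyme that makes N-acyl amino acids, at -1.38 ± 0.35. These 4 were named for the smallest p of the list. Groups did not overlap for any of them, and their adjusted p lay between 0.134 and 0.164 in edgeR. Over the 26 genes, groups were apart for 1 higher and 5 lower under the label KO, against 13.7% and 12.5% of all genes. DESeq2 called 4 of the 24 list genes it tested, 1 higher and 3 lower, against 6.88% of all its genes. They were the same 4 genes, picked for small p in the same counts, so this is not separate support. Without KO 1, edgeR called 4 of the 26, 1 higher and 3 lower, against 5.57% of all genes. These were Agt, Sfrp5, Angptl4 and Pm20d1, but not Sparc.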
